A study of Mus musculus with 6 samples.

Results

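Tetraspanins are small membrane proteins that cross the plasma membrane several times and expose a large, disulphide-bonded outer loop. They bind one another and their partners sideways, among them integrins, proteases and growth factor precursors, in membrane patches known as the tetraspanin web, and some are carried at high density on extracellular vesicles. The uroplakins build the crystalline plaques of the bladder lining: Upk1a and Upk1b are themselves tetraspanins, and Upk2, Upk3a and Upk3b are partners with a single membrane pass.

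The members were chosen by name: all genes of the deposited table whose mouse symbol is Tspan with a number, or Upk1 to Upk3 with or without a letter, together with Cd9, Cd37, Cd53, Cd63, Cd81, Cd82 and Cd151. This gave 32 of 54418 genes. No measured value entered the choice of single genes, but the family as a whole was selected on measured values, the fall of Upk1b and of other members between these same libraries. Its counts and adjusted p-values therefore describe the members and are no test of the family.

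RNA came from mouse organoids, self-organising epithelial cultures, of a line labelled AKP in both groups (the labels do not spell the name out). The 2 groups differ by the genotype label, Control or GATA6KO, with 3 libraries each, and the question is which transcripts differ when the endodermal transcription factor GATA6 is targeted. The labels name neither the lesion, the method of knockout, the number of clones nor what the Control lines received. They also do not say whether replicates were separate cultures. The p-values set the difference between the groups against the spread of these libraries within groups, and that spread may be technical.

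Total estimated counts ran from 22973245 to 31328415 per library. Values of a group are given in the order of its replicates 1, 2 and 3. Gata6 had 577, 669 and 840 counts in Control against 427, 489 and 247 in GATA6KO, or 25.5 ± 2.42 and 12.8 ± 4.09 CPM (CPM are TMM-scaled counts relative to library size, given with the SD over 3 libraries; edgeR adjusted p = 0.0486, and 0.128 to 0.181 without any 1 Control replicate). Of 12 colon epithelium markers, 12 averaged at least 1 CPM, with a summed level of 11334 to 12376 CPM in Control and 7619 to 8889 CPM in GATA6KO. Most of the sum was keratin: Krt8 averaged 3272 and 2242 CPM in Control and GATA6KO, Krt18 1126 and 629, and Krt19 3393 and 2608. Car1 alone averaged higher in GATA6KO (80.9 and 189 CPM), and Vil1 differed little (453 and 417 CPM). The part of this lower sum in the values of the members was not tested. The 7 fibroblast markers summed to at most 0.7 CPM in any library, and the 5 endothelial ones to 2.63 to 2.73 CPM in Control and 3.54 to 5.62 CPM in GATA6KO, with Cdh5 and Kdr at 3 counts or fewer. These are bulk values, in which fewer cells of a type and less RNA per cell cannot be told apart.

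Upk1b, Tspan8, Tspan33 and Tspan2 were called lower, while Cd9, Tspan3 and Tspan5 were called higher. Tspan2 entered the test only through its Control libraries, the group where it was higher, and nothing is read from its call. Of the 32 members, 26 were expressed enough to be tested. By edgeR's quasi-likelihood test, adjusted over all 14714 genes tested, 7 of the 26 (26.9%) were called, against 12.4% of all genes tested. There were 3 higher (11.5%, against 6.92% of all genes) and 4 lower (15.4%, against 5.47%), and nothing is read from these shares for the reason given above. Fold changes pointed up in 13 tested members and down in 13, with a median log2 change (log2 of GATA6KO over Control) of -0.01 beside 0.02 over all genes. Without Control replicate 1, 2 or 3 the number of members called was 3, 2 and 2, beside 425, 389 and 332 of all genes. Without GATA6KO replicate 1 it was 11, beside 4360 of all genes, where the main test called 1823 genes. The member counts thus moved with those of the whole table. Upk1b was called in every one of the 16 alternatives run. In 15 of the 26 (57.7%) the values of the groups did not overlap, which held for 40.8% of all genes tested. Of the 6 members not tested, Tspan10 and Tspan11 had 0 counts in every library, which allows up to 3 counts, or 0.0958 to 0.131 CPM of the unscaled library total. Upk2, Upk3b, Tspan6 and Tspan18 had at most 15 counts in a library.

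**Figure D1:**
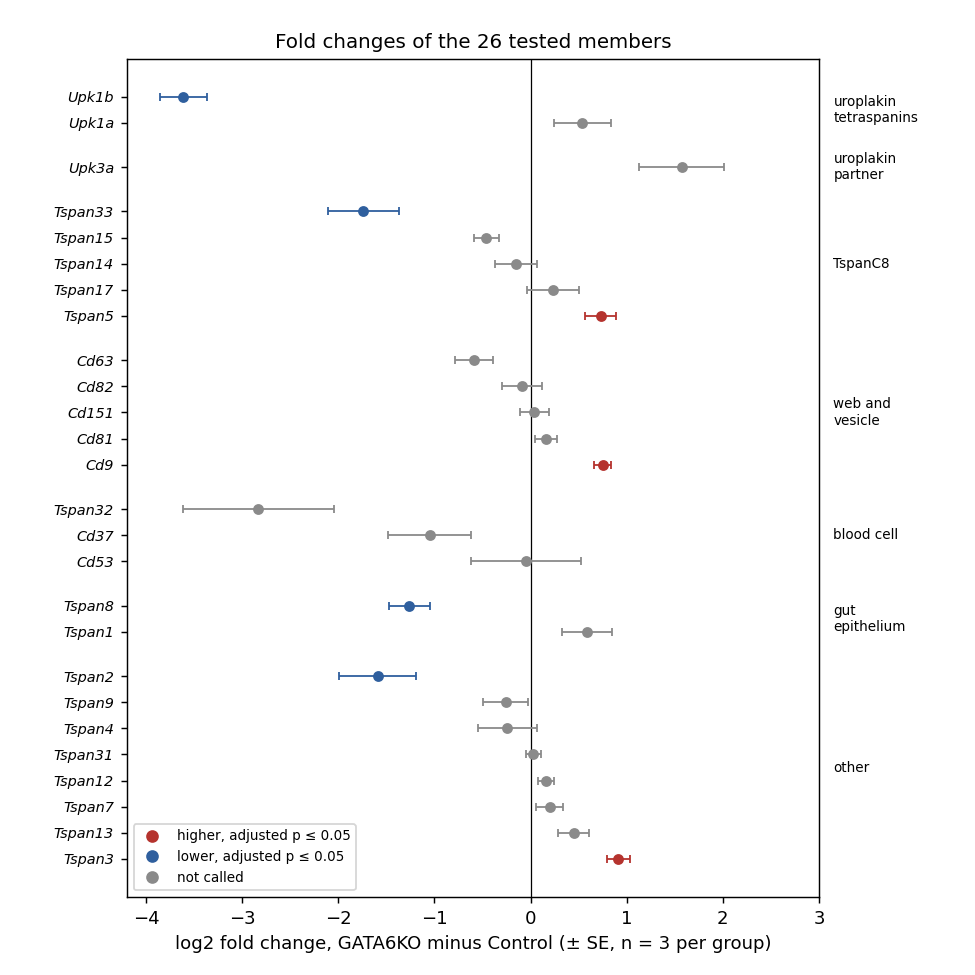
Log2 change of each of the 26 tested members (x axis, GATA6KO minus Control, ± SE, 3 libraries per group), ordered by role; colours mark edgeR calls at an adjusted p of 0.05. Upk1b lies farthest to the left at -3.61, and the 3 members that rose lie between 0.73 and 0.91.

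Of the 5 uroplakins, Upk2 and Upk3b were not tested, and of the others Upk1b alone was called, and it fell. Upk1b (ENSMUSG00000049436, chromosome 16, 38773184 to 38800328, GRCm38), which in the bladder pairs with Upk3a, measured 10.6, 11.6 and 9.50 CPM in Control and 0.669, 0.885 and 1.03 CPM in GATA6KO. Each GATA6KO library thus lay far below each Control library, and the GATA6KO mean was 12.3-fold lower. The log2 change was -3.61 (SE 0.24, edgeR adjusted p = 0.0012), with adjusted p from 0.00167 to 0.0153 when each library was left out in turn. Behind the GATA6KO values stood 20, 27 and 31 counts.

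Upk3a, the partner that Upk1b escorts to the urothelial surface, had 10, 9 and 14 counts in Control and 45, 19 and 45 counts in GATA6KO. Its groups did not overlap, with 0.406 ± 0.0824 and 1.21 ± 0.508 CPM (SD over 3 libraries each), but it missed the threshold (log2 change 1.57, SE 0.44, edgeR adjusted p = 0.0636). It passed without GATA6KO replicate 2, the lowest of the 3 (log2 change 1.88, edgeR adjusted p = 0.0158), and in no other of the 6 runs without 1 library. Upk1a, the other tetraspanin of the plaque, had 9, 16 and 15 counts in Control and 23, 22 and 19 in GATA6KO (log2 change 0.54, SE 0.30, edgeR adjusted p = 0.265). Upk2 had at most 1 count in a library, and Upk3b had 1, 0 and 2 counts in Control and 0 in each GATA6KO library.

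Urothelial markers other than uroplakins were partly present in both groups. Krt7, a keratin of simple and urothelial epithelium, averaged 1209 CPM in Control and 1060 CPM in GATA6KO, and Pparg, a nuclear receptor active in urothelium and colon, 138 and 69.1 CPM. The surface antigen Psca had 1, 7 and 8 counts in Control and 34, 59 and 30 counts in GATA6KO, and the transcription factor Grhl3 averaged 8.22 and 9.44 CPM. The basal keratin Krt5 had at most 2 counts in any library. The 10 urothelial markers summed to 1280 to 1500 CPM in Control and 1020 to 1244 CPM in GATA6KO, most of it Krt7, and their part in the fall of Upk1b was not tested. The 6 mesothelial markers summed to 3266 to 3746 CPM and 2517 to 3028 CPM, most of it the epithelial keratin Krt19; of the 6, Wt1, Gpm6a and Upk3b had at most 2 counts, while Msln averaged 69.8 and 95.8 CPM.

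Among the members known from gut epithelium and carcinomas, Tspan8 fell and Tspan1 was split between libraries. Tspan8 (ENSMUSG00000034127, chromosome 10, 115816832 to 115849893), a cell surface glycoprotein of colon and other carcinomas linked to invasion, measured 194, 215 and 227 CPM in Control and 69.2, 118 and 77.6 CPM in GATA6KO. The highest GATA6KO library, replicate 2, was still well under the lowest Control library. The log2 change was -1.26 (SE 0.21, edgeR adjusted p = 0.0141). The call was lost without Control replicate 1, 2 or 3 (adjusted p = 0.0586, 0.0694 and 0.0803), with log2 changes of -1.31, -1.26 and -1.22.

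Tspan1, which shares that epithelial setting, measured 75.1, 76.6 and 71.1 CPM in Control, and 128, 141 and 66.9 CPM in GATA6KO. GATA6KO replicates 1 and 2 were above every Control library and replicate 3 was below them all. It was not called (log2 change 0.59, SE 0.26, edgeR adjusted p = 0.174). It passed without GATA6KO replicate 3 (log2 change 0.86, adjusted p = 0.00618), and in no other of the 6 runs without 1 library.

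**Figure D2:**
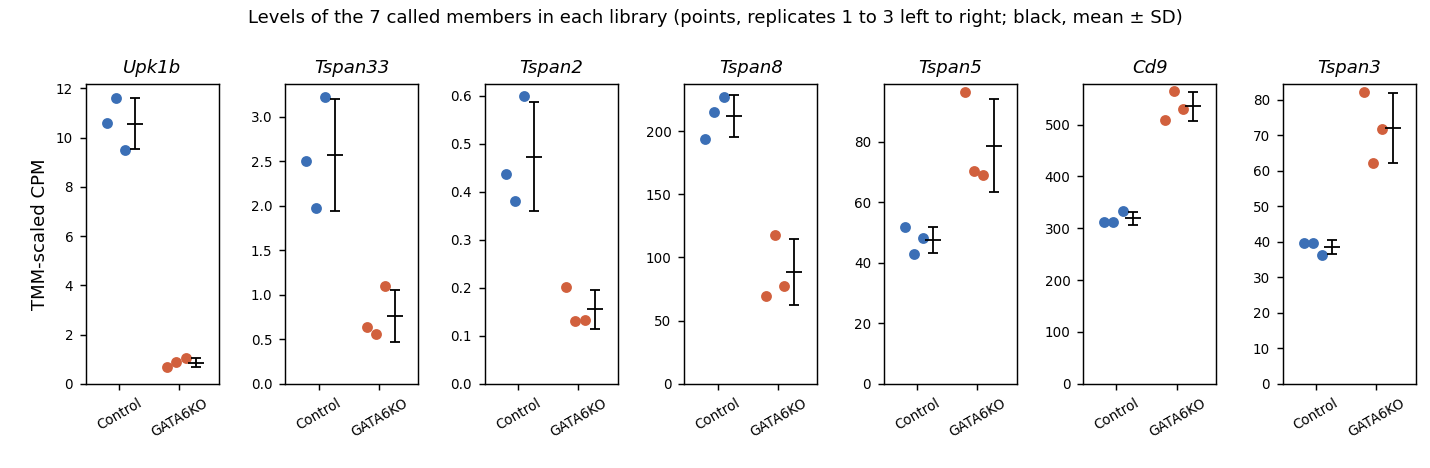
TMM-scaled CPM (y axis, from 0, a scale per gene) of the 7 called members in the 3 Control and 3 GATA6KO libraries, with mean ± SD in black. In each panel the groups do not overlap; Cd9 runs from 312 to 333 CPM in Control and from 509 to 565 CPM in GATA6KO.

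Cd9 rose, while the other tetraspanins of the web and of vesicles did not pass the test. Cd9 (ENSMUSG00000030342, chromosome 6, 125460266 to 125494791), an adaptor of integrins and of the heparin-binding EGF precursor and a common vesicle marker, measured 312, 312 and 333 CPM in Control and 509, 565 and 531 CPM in GATA6KO. Both groups were tight, and they lay 1.68-fold apart (log2 change 0.75, SE 0.09, edgeR adjusted p = 0.00497). Without Control replicate 2 the adjusted p was 0.0528. An antisense-strand gene of 14 counts in all overlaps 10.7% of the Cd9 exon bases.

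Cd81, the closest relative of Cd9 in this group, measured 240, 237 and 255 CPM in Control and 297, 238 and 288 CPM in GATA6KO (log2 change 0.16, SE 0.11, edgeR adjusted p = 0.337). The ratio of Cd9 to Cd81 per kb of exon was 1.83, 1.85 and 1.84 in Control and 2.42, 3.35 and 2.60 in GATA6KO, higher in each GATA6KO library, with the largest value in replicate 2, where Cd81 was lowest. Cd151, which binds laminin-binding integrins, measured 111 ± 7.76 and 114 ± 21.9 CPM (SD over 3 libraries each; log2 change 0.04, SE 0.15, edgeR adjusted p = 0.89).

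Cd63, the tetraspanin of late endosomes and lysosomes, measured 126, 127 and 104 CPM in Control and 98.8, 80.4 and 58.5 CPM in GATA6KO. Its groups did not overlap, but it missed the threshold (log2 change -0.59, SE 0.20, edgeR adjusted p = 0.0959). It passed without GATA6KO replicate 1 (adjusted p = 0.0245), and in no other of the 6 runs without 1 library. Cd82, known as a suppressor of metastasis, spread from 56.9 to 102 CPM in GATA6KO around Control values of 77.7 to 85.3 CPM (log2 change -0.09, SE 0.21, edgeR adjusted p = 0.807). Without GATA6KO replicate 1, its highest library, Cd82 was called lower (log2 change -0.37, adjusted p = 0.0463). None of the other runs among the 6 without 1 library called Cd82, and without GATA6KO replicate 3 its log2 change was 0.08. The run without GATA6KO replicate 1 called 4360 of all genes, against 1823 in the main test.

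The TspanC8 tetraspanins, named for the cysteines of their outer loop, carry the protease ADAM10 to the cell surface and steer which substrates it cuts. Of these 6, 1 rose, 1 fell, 3 were not called and Tspan10 was at 0. The called ones are 40% of the 5 tested, against 12.4% of all genes, and nothing is read from this share. Tspan5 (ENSMUSG00000028152, chromosome 3, 138742195 to 138907905), which favours Notch cleavage, measured 51.7, 43.0 and 48.1 CPM in Control and 96.4, 70.4 and 69.2 CPM in GATA6KO. All GATA6KO libraries were higher, replicate 1 by most (log2 change 0.73, SE 0.16, edgeR adjusted p = 0.03). Tspan33 (ENSMUSG00000001763, chromosome 6, 29694222 to 29718559) had 57, 57 and 97 counts in Control and 19, 17 and 33 counts in GATA6KO. It was a low transcript in both groups, with 2.57 ± 0.633 and 0.764 ± 0.294 CPM (log2 change -1.74, SE 0.37, edgeR adjusted p = 0.0298).

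Tspan15, the partner tied to cadherin cleavage, measured 45.7, 47.5 and 47.8 CPM in Control and 35.2, 28.3 and 39.2 CPM in GATA6KO. Its groups did not overlap, and the log2 change of -0.46 (SE 0.13) missed the threshold (edgeR adjusted p = 0.0691). It passed without GATA6KO replicate 3 (adjusted p = 0.0397), and in no other of the 6 runs without 1 library. Tspan14, the most abundant of the 6 per kb, measured 79.0, 76.4 and 82.3 CPM in Control and 86.6, 46.8 and 81.1 CPM in GATA6KO, so that replicate 2 alone stood low (log2 change -0.15, SE 0.22, edgeR adjusted p = 0.685). Tspan14 lies on chromosome 14, whose genes had a median log2 ratio to Control of -0.90 in GATA6KO replicate 2, and of -0.09 and 0.04 in replicates 1 and 3. Without replicate 2 the log2 change of Tspan14 was 0.08. Tspan17 measured 5.11 ± 0.373 and 5.99 ± 2.06 CPM (SD over 3 libraries each), with 8.36 CPM in GATA6KO replicate 2 and 4.61 and 5 CPM in replicates 1 and 3 (log2 change 0.23, SE 0.27, edgeR adjusted p = 0.603).

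As shares of the TspanC8 sum per kb, Tspan14 took 65.2% to 65.7% in the Control libraries and 61.7%, 49.3% and 63.8% in GATA6KO. Tspan5 took 13.2% to 15.3% in Control and 24.6%, 26.6% and 19.5% in GATA6KO. A share also moves with the other members. In GATA6KO replicate 2 Tspan14 stood low at 46.8 CPM, and Tspan5 measured 70.4 CPM there against 96.4 CPM in replicate 1. Tspan15 went from 12.2% to 13.2% in Control to 8.14%, 9.68% and 9.98% in GATA6KO. How Tspan5 and Tspan15 compare depends on the length used. With the longest transcript of each gene as its length, an alternative chosen after seeing the data, Tspan5 took 13.9%, 11.9% and 12.5% in Control and 23.3%, 24.8% and 18.1% in GATA6KO, and Tspan15 took 22.5%, 24.1% and 22.7% in Control and 15.6%, 18.2% and 18.8% in GATA6KO. With either length the share of Tspan5 was higher, and that of Tspan15 lower, in each GATA6KO library than in each Control library. The calls of Tspan5 and Tspan33 were lost without Control replicate 1, 2 or 3, with adjusted p of 0.0888, 0.127 and 0.129 for Tspan5 and of 0.114, 0.0865 and 0.144 for Tspan33.

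Tspan32, Cd37 and Cd53, tetraspanins known mainly from blood cells, were low in every library. Tspan32 had 40, 16 and 40 counts in Control and 11, 1 and 3 counts in GATA6KO. Its groups did not overlap, but its libraries differed widely within each group and it missed the threshold (log2 change -2.83, SE 0.79, edgeR adjusted p = 0.0621). It passed without GATA6KO replicate 1 (log2 change -4.10, adjusted p = 0.0178), and in no other of the 6 runs without 1 library. Cd37 had 47, 54 and 48 counts in Control and 35, 12 and 33 in GATA6KO (log2 change -1.05, SE 0.43, edgeR adjusted p = 0.152). Cd53 had 32, 42 and 67 counts in Control and 27, 97 and 25 in GATA6KO, so that replicate 2 was the highest library and replicates 1 and 3 the lowest (log2 change -0.05, SE 0.57, edgeR adjusted p = 0.96). Of 8 leukocyte markers, Cd79a, Lyz2, Cd3e, Ptprc, Csf1r and Itgam had at most 11 counts in a library. The list summed to 11.4 to 14.5 CPM in Control and 3.18 to 5.75 CPM in GATA6KO, nearly all of it the lysosomal Cd68, at 11.9 and 3.43 CPM. The part of blood cells in these values was not tested.

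Among the other tetraspanins, Tspan3 rose and Tspan2 was called lower at low counts. Tspan3 (ENSMUSG00000032324, chromosome 9, 56131725 to 56165477), first described with a myelin protein and found in many tissues, measured 39.5, 39.6 and 36.1 CPM in Control and 82, 62.2 and 71.6 CPM in GATA6KO. The lowest GATA6KO library was well above the highest Control library (log2 change 0.91, SE 0.12, edgeR adjusted p = 0.00713), and without Control replicate 3 the adjusted p was 0.0532. Tspan2 (ENSMUSG00000027858, chromosome 3, 102734529 to 102801513), known from oligodendrocytes, had 10, 11 and 18 counts in Control and 6, 4 and 4 counts in GATA6KO (log2 change -1.59, SE 0.40, edgeR adjusted p = 0.0468). The GATA6KO counts of Tspan2 were below the 10 of the filter, so it entered the test through its Control libraries alone. It was the called member nearest the threshold, with Tspan32, Upk3a and Tspan15 next outside it. Its call was lost without any 1 library other than GATA6KO replicate 1 (adjusted p = 0.0861 to 0.217), with DESeq2 (adjusted p = 0.124), limma-voom (0.0502) and no filter (0.125).

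Tspan12, which assists the Norrin receptor Frizzled-4 in beta-catenin signalling, was even across libraries, at 268, 291 and 293 CPM in Control and 315, 310 and 325 CPM in GATA6KO. Its groups did not overlap, yet the difference was small (log2 change 0.16, SE 0.08, edgeR adjusted p = 0.246). Tspan31 measured 70.6 ± 1.80 and 71.8 ± 3.87 CPM (SD over 3 libraries each; log2 change 0.03, SE 0.08, edgeR adjusted p = 0.864), and 29.2% of its exon bases are shared with Cdk4 on the opposite strand, so that its level is uncertain if strand was not used in counting. Tspan7, Tspan9 and Tspan13 had mean levels from 18.7 to 62.4 CPM in Control and were not called, with log2 changes of 0.20, -0.26 and 0.45. Tspan13 passed without GATA6KO replicate 1 (adjusted p = 0.0119), and in no other of the 6 runs without 1 library. Tspan4 measured 34.1, 34.2 and 36.1 CPM in Control and 22, 46.1 and 20.2 CPM in GATA6KO (log2 change -0.24, edgeR adjusted p = 0.633). It was called lower without GATA6KO replicate 2 (log2 change -0.72, adjusted p = 0.00905), and in no other of the 6 runs without 1 library. It shares 13.4% of its exon bases with Chid1 on the opposite strand. Of the members not tested, Tspan6 had 1, 3 and 0 counts in Control and 4, 4 and 15 in GATA6KO, and Tspan18 had 3 to 9 counts in each library.

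The members differed more between GATA6KO libraries than between Control libraries, as genes in general did. The median SD of log2 CPM was 0.0888 in Control and 0.338 in GATA6KO over the 26 members, and 0.0949 and 0.279 over all genes tested. Among the 23 members with at least 1 CPM in Control, the log2 ratio to the Control mean spanned 3.49 between GATA6KO libraries for Tspan32, 1.93 for Cd53, 1.57 for Cd37, 1.19 for Tspan4 and 1.08 for Tspan1. It spanned 0.07 for Tspan12, and 0.15 for both Cd9 and Tspan31. The member with the strongest fall, Upk1b, stood in the middle at 0.62. The library that stood apart was not the same for each gene: replicate 2 was highest for Cd53, Tspan4 and Tspan17 and lowest for Tspan14, Tspan32 and Cd37, while replicate 3 was lowest for Tspan1, Tspan9 and Cd63.

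**Figure D3:**
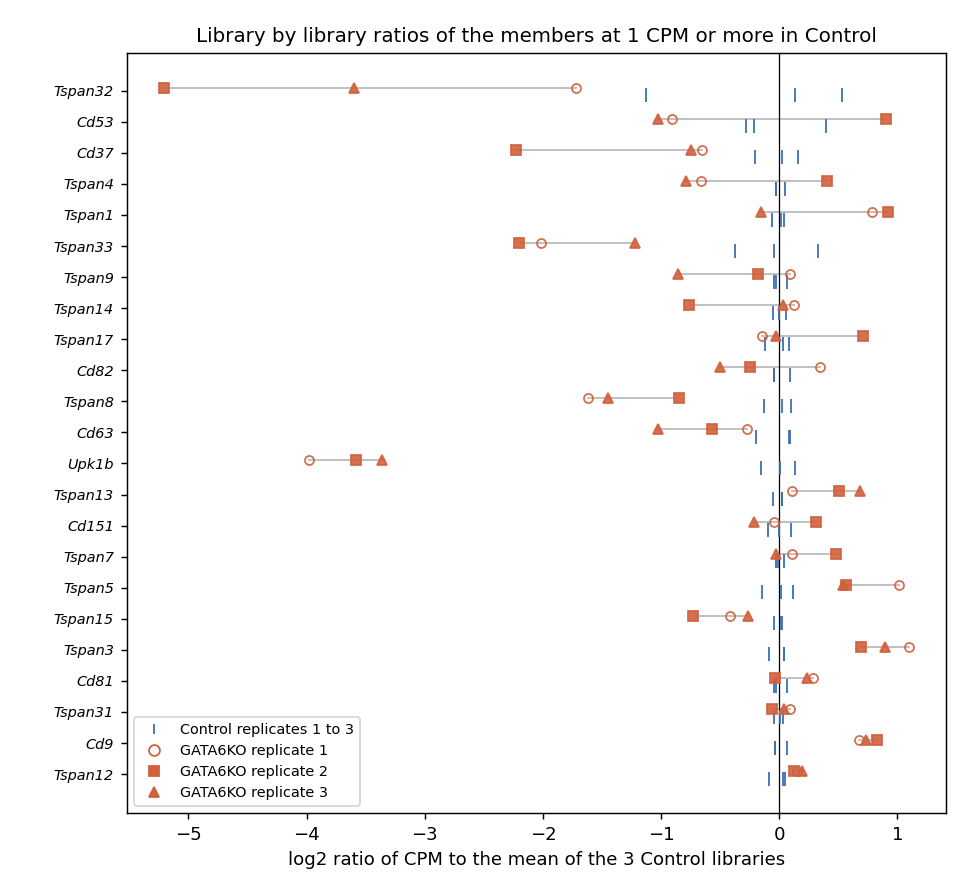
Log2 ratio of CPM to the mean of the 3 Control libraries (x axis) for the 23 members with at least 1 CPM in Control, ordered by the spread between GATA6KO libraries; blue ticks are Control libraries and orange symbols GATA6KO libraries. Tspan32 spreads widest, from -5.21 to -1.72, and Tspan12 least, from 0.13 to 0.19.

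Per kb of merged exon, which allows genes to be compared, Cd9 was the most abundant member in both groups. The sum over all members was 719 ± 23.5 CPM per kb in Control and 781 ± 39.2 CPM per kb in GATA6KO (SD, n = 3 each). Of this sum Cd9 took 21.7 ± 0.389% in Control and 33.6 ± 1.89% in GATA6KO. Tspan8 was the second most abundant member in Control, with 17.3 ± 0.818%, and ranked 4 in GATA6KO, with 6.62 ± 1.74%. Tspan12 took 11.9 ± 0.308% and 12.3 ± 0.931%, Cd81 11.8 ± 0.292% and 12.2 ± 1.83%, and Cd151 5.63 ± 0.209% and 5.30 ± 0.786%. The shares of these last 3 differed between the groups by less than the spread of the GATA6KO libraries. Together the 5 leading members of Control held 68.3 ± 1.12% of the sum in Control and 70.0 ± 3.18% in GATA6KO. Upk1b, with the largest fold change, was a minor transcript, with 0.707 ± 0.0845% in Control and 0.0532 ± 0.0134% in GATA6KO. With the longest transcript of each gene as its length, Cd9 took 24.9% and 37.1%, Tspan8 14.6% and 5.43%, and Upk1b 0.537% and 0.0389%.

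**Figure D4:**
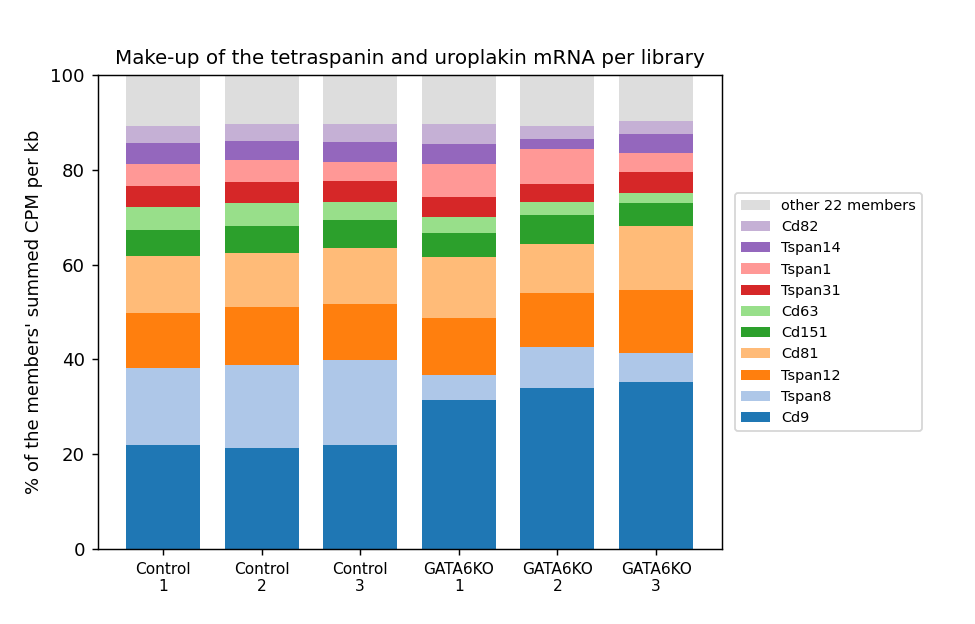
Share of each member in the summed CPM per kb of all 32 members (y axis, in percent) in each of the 6 libraries, with the 10 members most abundant in Control in colour and the other 22 in grey. The Cd9 band widens from 21.7% to 33.6% on average and the Tspan8 band narrows from 17.3% to 6.62%.

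Among members that lie close together on a chromosome, none was called. Tspan32 and Cd81 are 33.1 kb apart on chromosome 7, with log2 changes of -2.83 and 0.16. Cd151 and Tspan4 are 3.8 kb apart on that chromosome, with 0.04 and -0.24. The remaining close pairs, Tspan11 with Tspan9 and Tspan18 with Cd82, each have a member that was not tested. None of the 7 called members lies within 200 kb of another member.

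Promoter sequence is shown for 3 members that differ in their values: Tspan8, the most abundant member that fell, Cd9, the most abundant one that rose, and Tspan32, which had the largest fold change among the members not called. Each run is RefSeq sequence of GRCm38.p6, written 5′ to 3′ along the gene from position -250 to -41 before the RefSeq start. Capitals mark matches to the hexamer AGATAA or the hexamer AGATAG, and to the hexamer TGATAA or the hexamer TGATAG, forms of the site that GATA factors bind; a match on the opposite strand reads as the reverse complement. The regions are chr10:115817034-115817243 (plus strand), chr6:125494801-125495010 (minus strand) and chr7:143004796-143005005 (plus strand).
Tspan8: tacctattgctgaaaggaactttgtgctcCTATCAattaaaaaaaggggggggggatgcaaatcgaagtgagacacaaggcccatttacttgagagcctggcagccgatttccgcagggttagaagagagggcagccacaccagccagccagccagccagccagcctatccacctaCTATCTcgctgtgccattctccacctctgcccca
Cd9: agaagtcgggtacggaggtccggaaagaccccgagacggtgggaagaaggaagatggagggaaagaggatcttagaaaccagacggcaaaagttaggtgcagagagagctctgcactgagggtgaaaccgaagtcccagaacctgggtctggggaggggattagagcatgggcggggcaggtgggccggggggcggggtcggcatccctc
Tspan32: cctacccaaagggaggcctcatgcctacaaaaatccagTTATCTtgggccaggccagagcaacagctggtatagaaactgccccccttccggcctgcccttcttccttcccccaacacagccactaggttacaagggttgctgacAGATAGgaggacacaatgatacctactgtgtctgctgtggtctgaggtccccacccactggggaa

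The Tspan8 window held 2 matches, both on the opposite strand, at -221 and -74. Tspan32 held 2, at -212 on the opposite strand and at -105, while Cd9 held none in its 300 bases (250 before to 50 after the start). Over the 39 windows listed for 29 members, 11 windows (28.2%) held at least 1 match, as did 29.8% of all 32851 RefSeq windows. Of the 6 called members with a window, Tspan8 was the 1 with a match. Cd37, Cd53, Tspan1, Tspan9, Tspan10, Tspan14, Upk1a, Upk3a and Upk3b also had one. Upk1b, Upk2 and Tspan18 had no entry. A match describes these letters and is not evidence of binding.

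Among 15 genes for partners that tetraspanins hold in the membrane, 5 fell, 0 rose and 10 were not called. The share lower was 33.3%, against 5.47% of all genes tested. The list was chosen with earlier results of these data known, so nothing is read from this share. Fold changes pointed up in 3 and down in 12, with a median log2 change of -0.32. Over all genes tested 7633 pointed up and 7081 down, with a median of 0.02. For the same reason nothing is read from the directions in the list. Integrin alpha 2 (Itga2), a collagen receptor subunit, fell from 101 ± 7.06 to 11 ± 3.70 CPM (SD over 3 libraries each; log2 change -3.20, SE 0.24, edgeR adjusted p = 0.00153). Hbegf, the growth factor precursor that Cd9 binds, fell from 38.5 ± 1.21 to 20.3 ± 3.49 CPM (log2 change -0.92, adjusted p = 0.0124). The claudin Cldn7 fell from 360 to 248 CPM (adjusted p = 0.0146), and integrin alpha 6 (Itga6), which pairs with Cd151, from 911 to 661 CPM (adjusted p = 0.0353). The growth factor receptor Egfr was the remaining one called (log2 change -0.65, adjusted p = 0.0366). Itga2 was called without each library in turn. Hbegf, Cldn7, Itga6 and Egfr lost their call when Control replicate 1, 2 or 3 was left out (adjusted p = 0.0624 to 0.152), and Itga6 also not without GATA6KO replicate 3 (0.0659) or with scaling to the library total alone (0.0657).

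Adam10 itself, the protease that TspanC8 members carry, measured 265 ± 10.5 and 245 ± 15.5 CPM (SD over 3 libraries each; log2 change -0.12, SE 0.09, edgeR adjusted p = 0.405). Of 7 genes for its substrates, 1 rose (14.3%, against 6.92% of all genes tested) and 2 fell (28.6%, against 5.47%), with a median log2 change of -0.30. These genes were chosen with earlier results of these data known, and nothing is read from these shares. The receptor Notch1 rose from 38.8 to 91.9 CPM (log2 change 1.25, SE 0.16, adjusted p = 0.00654). The adhesion molecule L1cam fell from 72.0 to 37.3 CPM (log2 change -0.95, SE 0.11, adjusted p = 0.00495) and E-cadherin (Cdh1) from 739 to 545 CPM (log2 change -0.44, adjusted p = 0.0246). Notch1 and L1cam were called without each library in turn, and Cdh1 was not without Control replicate 1, 2 or 3 (adjusted p = 0.127, 0.112 and 0.109).

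Of 16 tested genes of endosome sorting and vesicle release, 2 rose and 0 fell (12.5% called, against 12.4% of all genes tested), with a median log2 change of -0.14. That share is at the background. Lamp1, a lysosomal membrane protein, rose from 233 ± 3.86 to 330 ± 15.2 CPM (log2 change 0.50, SE 0.08, edgeR adjusted p = 0.0134), and the sorting subunit Tsg101 from 71.3 ± 0.795 to 90.3 ± 1.21 CPM (log2 change 0.34, SE 0.07, adjusted p = 0.0319). Both lost their call when Control replicate 1, 2 or 3 was left out, with adjusted p reaching 0.108 for Lamp1 and 0.177 for Tsg101. Syntenin (Sdcbp) and Alix (Pdcd6ip), adaptors of vesicle loading, had log2 changes of -0.17 and -0.27 (adjusted p = 0.309 and 0.152).

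The L6 proteins resemble tetraspanins in layout but are not related to them in sequence. Of 5, 2 were tested, and both fell, against 5.47% of all genes tested: Tm4sf20 from 54.4 ± 5.36 to 7.37 ± 4.56 CPM (SD over 3 libraries each; log2 change -2.88, SE 0.48, edgeR adjusted p = 0.0147) and Tm4sf1 from 25.9 ± 1.72 to 1.85 ± 1.38 CPM (log2 change -3.80, SE 0.55, adjusted p = 0.00921). This list was chosen with earlier results of these data known, and nothing is read from the share that fell. Tm4sf20 was not called without Control replicate 1, 2 or 3 (adjusted p = 0.0618, 0.0669 and 0.0726), nor Tm4sf1 without Control replicate 3 (0.0532).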

How the data were processed

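The authors deposited one table of estimated counts per gene, as integers without scaling across libraries. Libraries were poly(A)-selected with a directional kit, per the labels' protocols. The submitters' processing notes name Salmon 1.3.0 and mm10; the role of each, the annotation and whether strand entered the counting were not given in the sources used here. Symbols matched 54096 of 54418 identifiers, and exon lengths and coordinates came from GENCODE M21 (GRCm38).

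The members and gene lists were chosen with earlier results of these data known. Genes were kept by edgeR's filterByExpr (10 counts at the median library in 3 libraries, 15 in total), scaled by TMM and tested over all genes by the quasi-likelihood test with robust estimation, without a block, with Benjamini-Hochberg adjustment at 0.05. An adjusted p without another tool named is from this test. The SE is the size of the log2 change divided by the square root of F. For chromosome 14, ratios were taken over genes above 5 CPM in Control after adding 0.1 CPM. Software was edgeR 4.0.16, DESeq2 1.42.0 and limma 3.58.1 under R 4.3.3. The test was also tried on simulated counts, which gave both groups the same spread, unlike these libraries, and nothing is read from that trial. Named were called members, uroplakins, TspanC8 members, the 5 members highest per kb in Control, and up to 4 called genes of each other list; the other members and genes given with values (Adam10, Egfr, Sdcbp, Pdcd6ip and markers among them) were chosen after their values were seen. Replicate numbers were not treated as pairs. The alternatives were other scalings, filters and tools, a 1.5-fold threshold, a replicate block, chromosome 14 left out and each library left out.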

Additional observations from a re-analysis of the deposited data

How the results depend on the processing

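With single libraries left out, the genes called ran from 332 to 4360, the members called higher from 1 to 4 and those called lower from 1 to 7. The lowest counts came without Control replicates, and the highest for lower members without GATA6KO replicate 1. The Upk1b share ran from 0.672 to 0.754% in Control and from 0.0463 to 0.0596% in GATA6KO, and was 0.537% and 0.0389% with the longest transcript as length. DESeq2 called 3238 genes, among them 10 members, 6 of the 7 called by edgeR and also Cd63, Tspan15, Tspan32 and Upk3a. Against a 1.5-fold change 525 genes were called, with 0 members higher and 1 lower, Upk1b. Deviations from the group mean correlated at -0.0103, 0.0744 and -0.0921 for same-numbered libraries, and at -0.148 to 0.156 for the others. With 3 libraries per group, and a wider spread in GATA6KO, these values cannot decide whether the numbers pair the libraries. With the replicate block 827 genes were called, with 3 members higher and 4 lower: Tspan2 was lost (adjusted p = 0.125) and Tspan32 gained (0.0384). Of the other genes given, the replicate block lost Cldn7, Itga6, Egfr, Cdh1, Lamp1, Tsg101 and Gata6. Scaling to the library total alone moved the share of higher calls from 55.8% to 65.7% (1302 higher, 680 lower) and lost Gata6 (adjusted p = 0.0573); the same 7 members were called. Without a filter on low counts Tm4sf20 and Tsg101 were not called (adjusted p = 0.0767 and 0.0715). Signs of uncalled members changed for Cd53 (log2 change 0.04 with the library total alone, 0.19 without Control replicate 3, 0.24 and 0.26 without GATA6KO replicates 1 and 3, and a range from -0.97 to 0.26 over single libraries left out) and Cd151 (-0.00 without Control replicate 1, -0.13 without GATA6KO replicate 2, range -0.13 to 0.15). They also changed for Tspan31 (-0.01 without GATA6KO replicate 1, range -0.01 to 0.07), Tspan17 (-0.09 without GATA6KO replicate 2, range -0.09 to 0.39), Tspan14 (0.08 without GATA6KO replicate 2, range -0.31 to 0.08) and Cd82 (0.08 without GATA6KO replicate 3, range -0.37 to 0.08). Where no value above shows a cause, the cause was not tested. Tspan2, Upk1a, Upk3a and Tspan32 each rest on under 20 counts in at least 1 library of each group; the part of depth in their errors was not tested.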

Other observations

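Upk3bl, an uroplakin-3-like gene whose symbol falls outside the rule for members and which was looked at after its values were seen, had 57, 61 and 75 counts in Control against 289, 316 and 242 in GATA6KO, in replicate order. The groups did not overlap (2.37 ± 0.222 and 9.36 ± 1.17 CPM, SD over 3 libraries each; log2 change 1.98, SE 0.20, edgeR adjusted p = 0.00306), and it was called without each library in turn. Its direction was opposite to that of Upk1b.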
